A study of Mus musculus with 36 samples.

Results

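The neuronal members of the Elavl, Nova and Rbfox families of RNA-binding proteins were followed in mouse motor neurons cultured in media conditioned by astrocytes of 3 genotypes. The genes were taken by symbol: Elavl2, Elavl3, Elavl4, Nova1, Nova2, Rbfox1, Rbfox2 and Rbfox3, which are 8 of the 21761 genes in the files. They were chosen by family name, but with earlier results of these data known. All 8 were read in all 36 libraries and all 8 were among the 15207 genes with enough reads to be tested.

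RNA-binding proteins of these families shape the mRNAs of a neuron after transcription. The neuronal Elavl proteins, also called Hu proteins, bind U-rich and AU-rich stretches, mostly in introns and at the ends of mRNAs, and affect mRNA stability, translation, alternative polyadenylation and splicing. Elavl2, Elavl3 and Elavl4 are best known from neurons, while their relative Elavl1 is expressed in most tissues. Nova1 and Nova2 bind clusters of short motifs around alternative exons of synaptic and axon guidance genes, and Nova1 is known from the ventral spinal cord and hindbrain. Rbfox proteins bind the motif UGCAUG and increase or decrease the inclusion of a nearby exon depending on its side. Rbfox3 is the antigen NeuN, a marker of mature neurons, Rbfox1 is found in neurons, heart and skeletal muscle, and Rbfox2 is expressed more widely. Their levels change when a progenitor becomes a neuron, a step at which the repressor Ptbp1 gives way to its relative Ptbp2.

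The cells came from embryonic stem cells of transgenic Hlxb9-GFP1Tmj mice, in which the promoter of HB9 (the gene now called Mnx1) drives eGFP, or eGFP together with the surface protein CD2. They were differentiated toward motor neurons and enriched with anti-CD2 magnetic beads, and all 6 groups share this origin. Each group held 6 libraries, numbered as experiments 1 to 6, from cells kept for 1 or 3 days in medium from cultured astrocytes that were non-transgenic (NTg), that carried the G93A mutant SOD1 transgene (mSOD1), or that over-expressed wild-type SOD1 (wtSOD1). The astrocytes were grown from newborn spinal cords or cortices, and the tissue behind a given library was not stated in the sources used here. All media received the same glucose, antibiotics and the growth factors GDNF, BDNF and CNTF. The time zero control that the study names is not analysed here. An experiment number pairs libraries, but nothing in the labels says whether the 6 libraries of a group came from separate differentiations, so the p-values measure the spread between these samples, which may be technical.

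Library totals ran from 4.39 M to 88.9 M reads (M, 1e6) with a median of 13.3 M, and the member with the fewest reads, Rbfox3, still had 233 or more in each library. No 2 libraries of a group agreed within sampling noise (the lowest chi-square per gene between a pair was 2.307). In the NTg day 1 library of experiment 6, 8 oligodendrocyte markers summed to 212 CPM and 8 microglia markers to 55.4 CPM, against 45.0 to 74.4 and 10.4 to 21.3 CPM in the other 35 libraries. Leaving out this library together with wtSOD1 day 1 of experiment 4 changed no count of members that passed the test, and the ratio calls that it changed are given with the ratios. All 17 neuronal and 10 motor neuron markers were read in every group, which alone does not tell neurons from other cells. The libraries also held reads of neural progenitor, dividing cell, astrocyte and mesenchyme markers, whose sums are given beside the results they move with.

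RefSeq tabulates transcription starts for 7 of the 8 genes (16 starts, build GRCm38.p6). The 250 bases before a start are shown for the genes with 1 tabulated start and, for Elavl2 and Elavl4, for the first of the windows with the most E-boxes, because the members fell together between the days and E-boxes are the sites of the basic helix-loop-helix factors that drive neuronal differentiation. Capitals mark every E-box, searched as CANNTG on both strands; the windows are chr9:22052024-22052273 (minus strand) for Elavl3, chr4:91372070-91372319 (minus) for Elavl2, chr4:110287528-110287777 (minus) for Elavl4, chr12:46818768-46819017 (minus) for Nova1, chr7:18925638-18925887 (plus) for Nova2 and chr11:118761042-118761291 (minus) for Rbfox3.
Elavl3: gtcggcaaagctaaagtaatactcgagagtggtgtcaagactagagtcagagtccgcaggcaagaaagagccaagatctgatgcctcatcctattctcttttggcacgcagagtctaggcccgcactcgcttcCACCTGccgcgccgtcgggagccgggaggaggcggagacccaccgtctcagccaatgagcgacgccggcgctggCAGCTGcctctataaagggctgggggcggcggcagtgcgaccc
Elavl2: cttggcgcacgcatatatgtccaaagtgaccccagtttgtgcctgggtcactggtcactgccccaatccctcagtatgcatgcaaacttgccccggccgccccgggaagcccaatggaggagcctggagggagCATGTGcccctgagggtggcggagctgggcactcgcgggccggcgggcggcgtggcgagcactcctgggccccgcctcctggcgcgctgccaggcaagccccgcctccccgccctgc
Elavl4: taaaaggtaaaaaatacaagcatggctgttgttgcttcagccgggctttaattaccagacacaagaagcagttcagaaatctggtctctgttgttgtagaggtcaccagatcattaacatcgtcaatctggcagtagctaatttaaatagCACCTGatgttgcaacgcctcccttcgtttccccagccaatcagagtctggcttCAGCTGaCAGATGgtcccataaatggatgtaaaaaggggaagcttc
Nova1: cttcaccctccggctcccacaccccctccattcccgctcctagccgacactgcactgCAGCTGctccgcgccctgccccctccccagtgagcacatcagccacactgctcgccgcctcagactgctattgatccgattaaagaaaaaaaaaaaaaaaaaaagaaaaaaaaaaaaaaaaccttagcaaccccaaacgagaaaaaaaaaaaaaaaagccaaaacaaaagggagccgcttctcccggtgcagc
Nova2: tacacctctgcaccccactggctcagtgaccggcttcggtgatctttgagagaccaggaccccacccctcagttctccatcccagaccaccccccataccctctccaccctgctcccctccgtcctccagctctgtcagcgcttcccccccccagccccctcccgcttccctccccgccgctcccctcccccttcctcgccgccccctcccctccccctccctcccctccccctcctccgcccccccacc
Rbfox3: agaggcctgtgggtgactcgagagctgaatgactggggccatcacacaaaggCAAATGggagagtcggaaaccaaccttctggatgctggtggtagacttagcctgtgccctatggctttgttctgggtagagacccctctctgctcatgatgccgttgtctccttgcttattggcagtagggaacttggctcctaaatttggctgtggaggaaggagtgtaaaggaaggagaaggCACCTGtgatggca
The Elavl4 window held 3 E-boxes, Elavl3 and Rbfox3 held 2 each, Elavl2 and Nova1 held 1 each and Nova2 held 0. An E-box is common: 66.2% of 32536 RefSeq promoter windows of the same 250 bases held at least 1. The variant CAGCTG, found in 13.1% of these windows, occurred in the windows of Elavl3, Elavl4 and Nova1. The windows of Elavl2 and Elavl4 were picked by their number of E-boxes, so their counts cannot be set against these shares: of the starts of Elavl2 3 of 6 held no E-box, and of those of Elavl4 1 of 4. The 2 tabulated starts of Rbfox1, whose windows are not printed, held 0 and 2. GC content of the printed windows ran from 44.0% (Elavl4) to 71.2% (Nova2), with a median of 52.4% over all windows. A match is a description of the letters and not evidence of a bound site.

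On day 1 in NTg medium every member was well expressed, and Elavl2 and Elavl4 led when levels were set per length of gene model. CPM here are counts per M reads after TMM scaling of the library sizes. Dividing by the kilobases of exon gave 87.5 ± 7.16 CPM per kb for Elavl2 (SD, n = 6), 76.3 ± 4.49 for Elavl4, 68.3 ± 1.15 for Rbfox2, 64.4 ± 5.16 for Rbfox1 and 58.5 ± 2.03 for Elavl3. Nova1 followed with 44.9 ± 2.55 CPM per kb and Nova2 with 20.0 ± 1.77, and Rbfox3 was the lowest (18.7 ± 1.62 with the longest coding transcript as the length, where Nova2 had 20.0). Rbfox2 and Rbfox1 lay within 1 SD of each other in this order. The lower end, Nova1 then Nova2 then Rbfox3, was the same in all 6 groups and with the longest coding transcript as the length, whereas Elavl3 moved from the fifth to the third place on day 1 with that length. On day 3 in NTg medium Elavl2 was still highest (48.1 ± 4.00 CPM per kb), Rbfox2 was now above Elavl4 (45.3 ± 3.04 against 38.6 ± 3.97) and Rbfox3 was lowest (5.97 ± 0.771).

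No 36-base word was shared between annotated transcripts of different members. Of the 36-base words of Nova2, 30.93% lie in the lincRNA Gm26821 on the opposite strand. The sources used here do not state whether the counting used strand, and the Nova2 counts are uncertain to that extent. The share with any other gene was 3.56% for Elavl3, 3.16% for Nova1 and 0 for the other five.

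**Figure D1:**
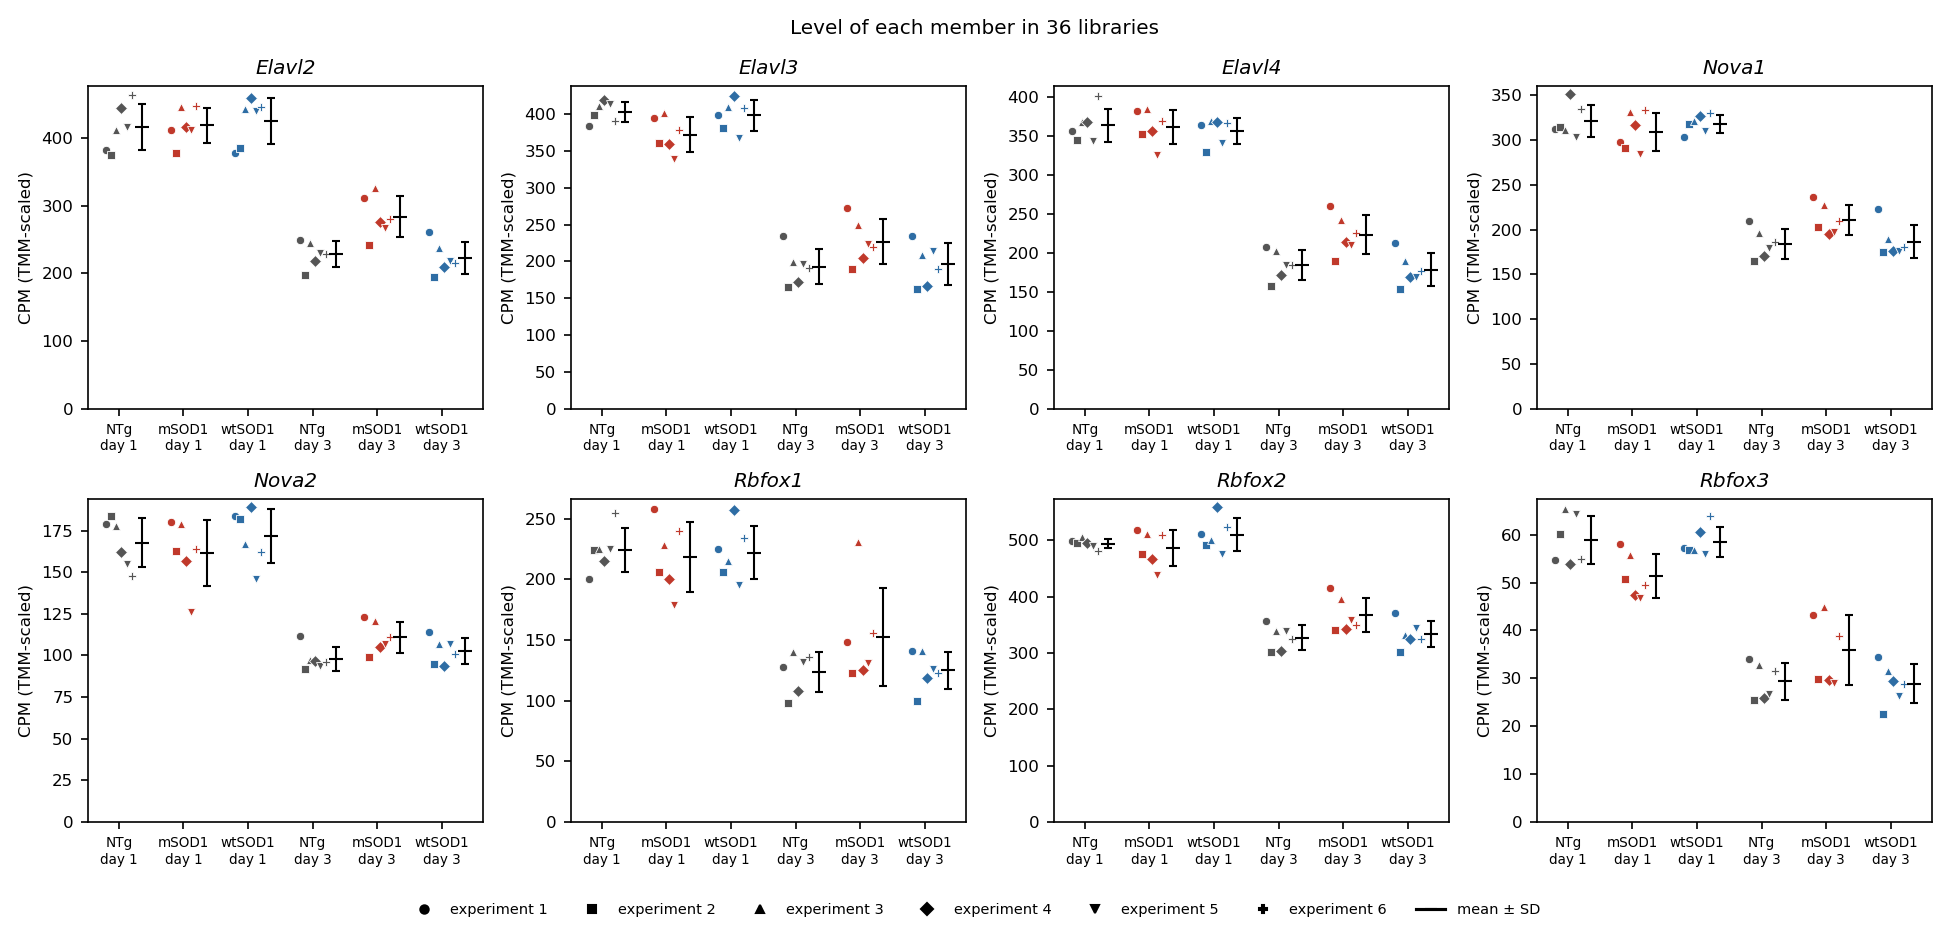
Level of each member in each of the 36 libraries (y axis, CPM on TMM-scaled library sizes, 1 panel per gene, each axis from 0), by medium and day; symbols are the experiment numbers and bars the mean ± SD of 6 libraries. All 8 genes sit lower on day 3 than on day 1, and on day 3 the mean in mSOD1 medium is above both other means in every panel.

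All 3 Elavl genes fell between day 1 and day 3 in every medium. Elavl3, often used as a pan-neuronal marker, ranged from 384 to 419 CPM with a median of 405 on day 1 in NTg medium and from 165 to 234 with a median of 193 on day 3. The 2 days did not overlap and the level fell by 52.2%. Its log2 difference, day 3 minus day 1, was -1.06 ± 0.08 (SE) in NTg, -1.02 ± 0.08 in wtSOD1 and -0.71 ± 0.08 in mSOD1 medium. Adjusted p-values (edgeR's quasi-likelihood F-test, Benjamini-Hochberg over all genes tested) were 4.9e-14, 1.2e-13 and 1.25e-09.

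Elavl4, which stabilises mRNAs of axon growth such as Gap43, ranged from 344 to 402 CPM (median 363) on day 1 and from 157 to 208 (median 184) on day 3 in NTg medium. In mSOD1 medium it ranged from 326 to 385 CPM (median 363) and then from 189 to 260 (median 220), and in wtSOD1 medium from 330 to 370 (median 366) and then from 153 to 213 (median 173). The days lay apart in all 3 media. The log2 differences were -0.98 ± 0.07, -0.70 ± 0.07 and -0.9999 ± 0.07 in NTg, mSOD1 and wtSOD1 medium, with adjusted p from edgeR of 4.61e-15, 4.64e-11 and 2.41e-15.

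Elavl2, the member with the highest level per kb, ranged from 376 to 464 CPM (median 415) on day 1 and from 197 to 250 (median 230) on day 3 in NTg medium. In mSOD1 medium its range went from 379 to 448 CPM (median 414) to 242 to 326 (median 278). In wtSOD1 medium it went from 378 to 460 CPM (median 442) to 195 to 262 (median 218). Again no day 3 library reached the day 1 range of its medium. Elavl2 fell by 45.1% in NTg medium, fell by 32.2% in mSOD1 and fell by 47.5% in wtSOD1.

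Both Nova genes fell less than the Elavl genes on the log2 scale, a difference that was not itself tested. Nova1 ranged from 303 to 351 CPM (median 313) on day 1 and from 165 to 210 (median 182) on day 3 in NTg medium, with a log2 difference of -0.80 ± 0.06. Nova2 ranged from 148 to 184 CPM (median 170) and then from 91.7 to 112 (median 96.5), with a log2 difference of -0.78 ± 0.07. In mSOD1 medium the differences were -0.55 ± 0.06 for Nova1 and -0.54 ± 0.07 for Nova2, and in wtSOD1 medium -0.77 ± 0.06 and -0.74 ± 0.07. The days did not overlap for either gene in any medium, and the adjusted p-values from edgeR were 6.22e-08 or lower.

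Among the Rbfox genes, Rbfox3 fell most and Rbfox2 least in NTg and wtSOD1 medium. Rbfox3 ranged from 54.0 to 65.3 CPM (median 57.6) on day 1 and from 25.4 to 34.0 (median 29.1) on day 3 in NTg medium, where it fell by 50.2%. Rbfox2 ranged from 481 to 506 CPM (median 496) and then from 301 to 357 (median 332), where it fell by 33.8%. The log2 differences were -1.003 ± 0.10 for Rbfox3, -0.85 ± 0.12 for Rbfox1 and -0.59 ± 0.05 for Rbfox2 in NTg medium. In wtSOD1 medium they were -1.03 ± 0.10, -0.83 ± 0.12 and -0.62 ± 0.05. In mSOD1 medium they were -0.51 ± 0.10, -0.52 ± 0.12 and -0.41 ± 0.05. Rbfox1 in mSOD1 medium was the single case where the days overlapped: it ranged from 179 to 258 CPM on day 1 and from 123 to 231 on day 3, where the library of experiment 3 was the highest and the next was at 156. Its fall held in that medium with an adjusted p of 0.000309 from edgeR.

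All 8 members therefore passed the test downward in each medium, where 30.8% of all genes tested were lower in NTg, 28.0% in mSOD1 and 30.7% in wtSOD1 medium, and 30.8%, 28.4% and 31.1% were higher. The members' median log2 difference was -0.85 in NTg, -0.54 in mSOD1 and -0.88 in wtSOD1 medium, and the median of all genes was near 0 (-0.0003, -0.008 and -0.0057). In NTg medium at most 9.2% of genes fell more than a member: Elavl3 stood at 1.8% from the bottom and Rbfox2 at 9.2%. How many of all genes had days that did not overlap was not counted. The lack of overlap therefore describes the members and does not set them apart from other genes.

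**Figure D2:**
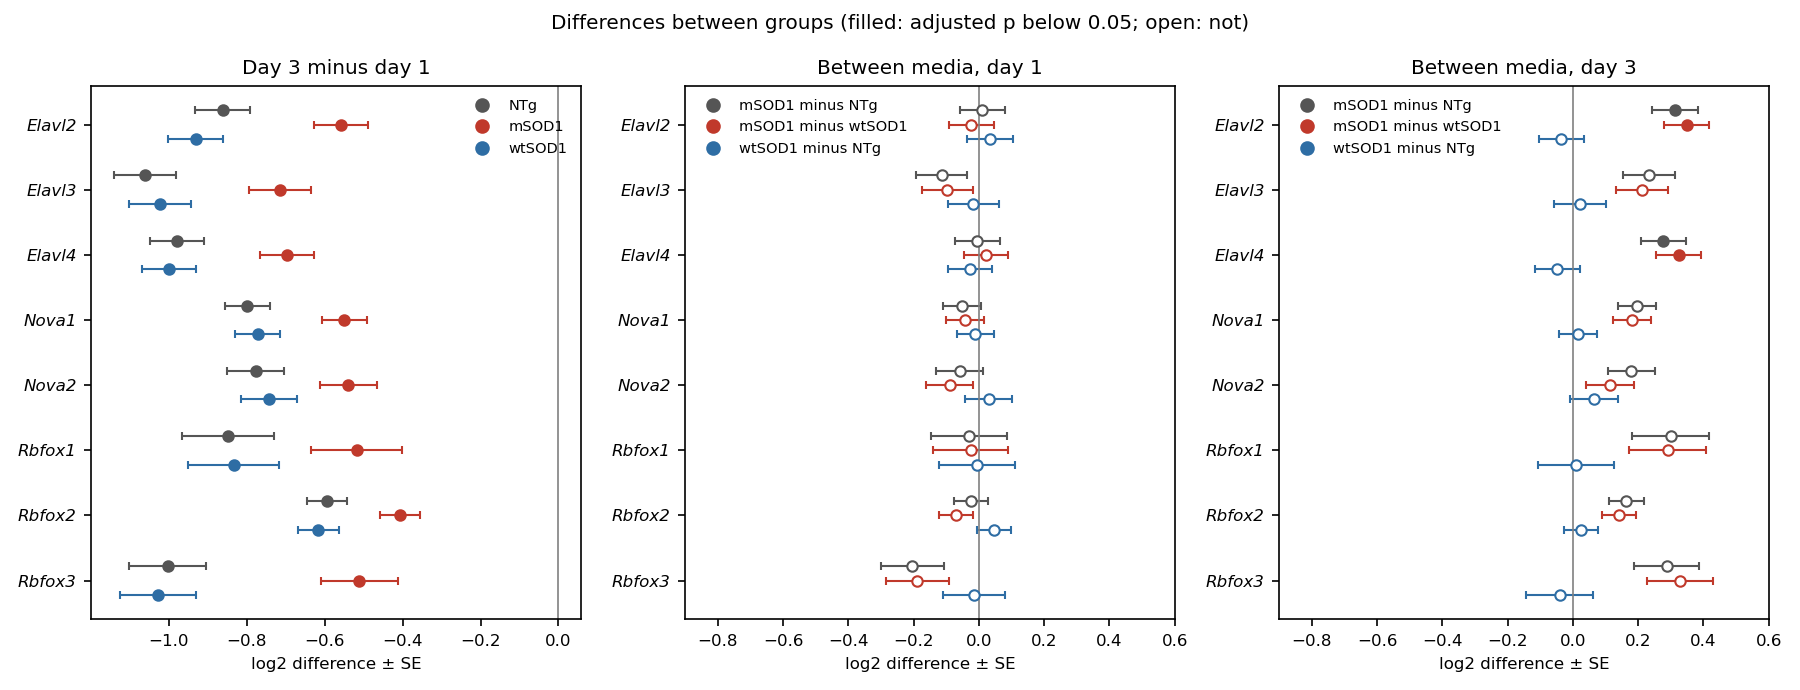
Log2 difference of each member (points, ± SE) in the comparisons of day and of medium; filled points have an adjusted p under 0.05 by edgeR. The day differences are filled and negative for all 8 genes in all 3 media, and among the comparisons of media the filled points are Elavl2 and Elavl4 on day 3, mSOD1 above NTg and above wtSOD1.

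Most neuronal and motor neuron markers fell with the members, while most dividing cell, progenitor, astrocyte and mesenchyme markers rose. The 17 neuronal markers (Tubb3, Map2, Dcx and others) summed to between 17064 and 19016 CPM on day 1 and between 9792 and 13756 on day 3 in NTg medium. Of them, 15 fell and 1 rose. The 10 motor neuron markers, led by Mnx1, Isl1 and Chat, went from 2011 to 2351 CPM to 895 to 1431, with 9 of 10 lower. The 10 dividing cell markers went from 620 to 794 CPM to 1097 to 1543 and all 10 rose, the 12 progenitor markers from 2001 to 2436 to 3480 to 3890 (7 rose, 1 fell), the 9 astrocyte markers from 233 to 309 to 598 to 810 (7 rose, 1 fell) and the 10 mesenchyme markers from 822 to 1228 to 2105 to 2937 (9 of 9 tested rose). Of 7 oligodendrocyte markers tested 2 rose and 2 fell, and of 3 microglia markers 0 rose and 1 fell. In bulk samples such as these, fewer neurons and less RNA of a gene per neuron cannot be told apart.

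Set against the neuronal markers of the same library, the members did not all behave alike. This measure, the reads of a member per 100 reads of the 17 neuronal markers, was chosen after the falls above were seen. It was tested with an exact two-sided permutation test of 6 against 6 libraries, adjusted by Benjamini-Hochberg over 72 tests. Only the members were tested on this scale, so no share over all genes stands beside these calls. The share of Rbfox2 did not change detectably: 2.75% on day 1 and 2.81% on day 3 in NTg medium, 2.72% and 2.73% in mSOD1 and 2.87% and 2.91% in wtSOD1, with log2 differences of 0.03, 0.01 and 0.02 (adjusted p 0.691, 0.949 and 0.834). Elavl3 fell beyond the summed markers in all 3 media (adjusted p 0.0156 each by the exact permutation test, no overlap of the days). It went from 2.24% to 1.65% in NTg, from 2.08% to 1.68% in mSOD1 and from 2.24% to 1.70% in wtSOD1. Elavl4 also fell beyond the summed markers, with log2 differences of -0.35, -0.29 and -0.37 and the same adjusted p. The sum weights the markers by their reads, so single markers can fall more than it. The motor neuron markers, which are not in this sum, had median unscaled log2 differences of -1.45, -1.14 and -1.46. These medians were below the unscaled value of every member in the same medium.

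Rbfox3 fell beyond the summed markers in NTg (0.327% to 0.251%) and wtSOD1 medium (0.329% to 0.251%), both with an adjusted p of 0.0156 from the exact permutation test. In mSOD1 medium it went from 0.286% to 0.264%, which did not pass (adjusted p 0.512 by the same permutation test). Elavl2 and Rbfox1 likewise passed in NTg and wtSOD1 medium but not in mSOD1, Nova1 passed in NTg medium, and Nova2 passed in none (log2 -0.14, -0.12 and -0.10). Whether these differences depend on the medium was not tested on this scale.

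**Figure D3:**
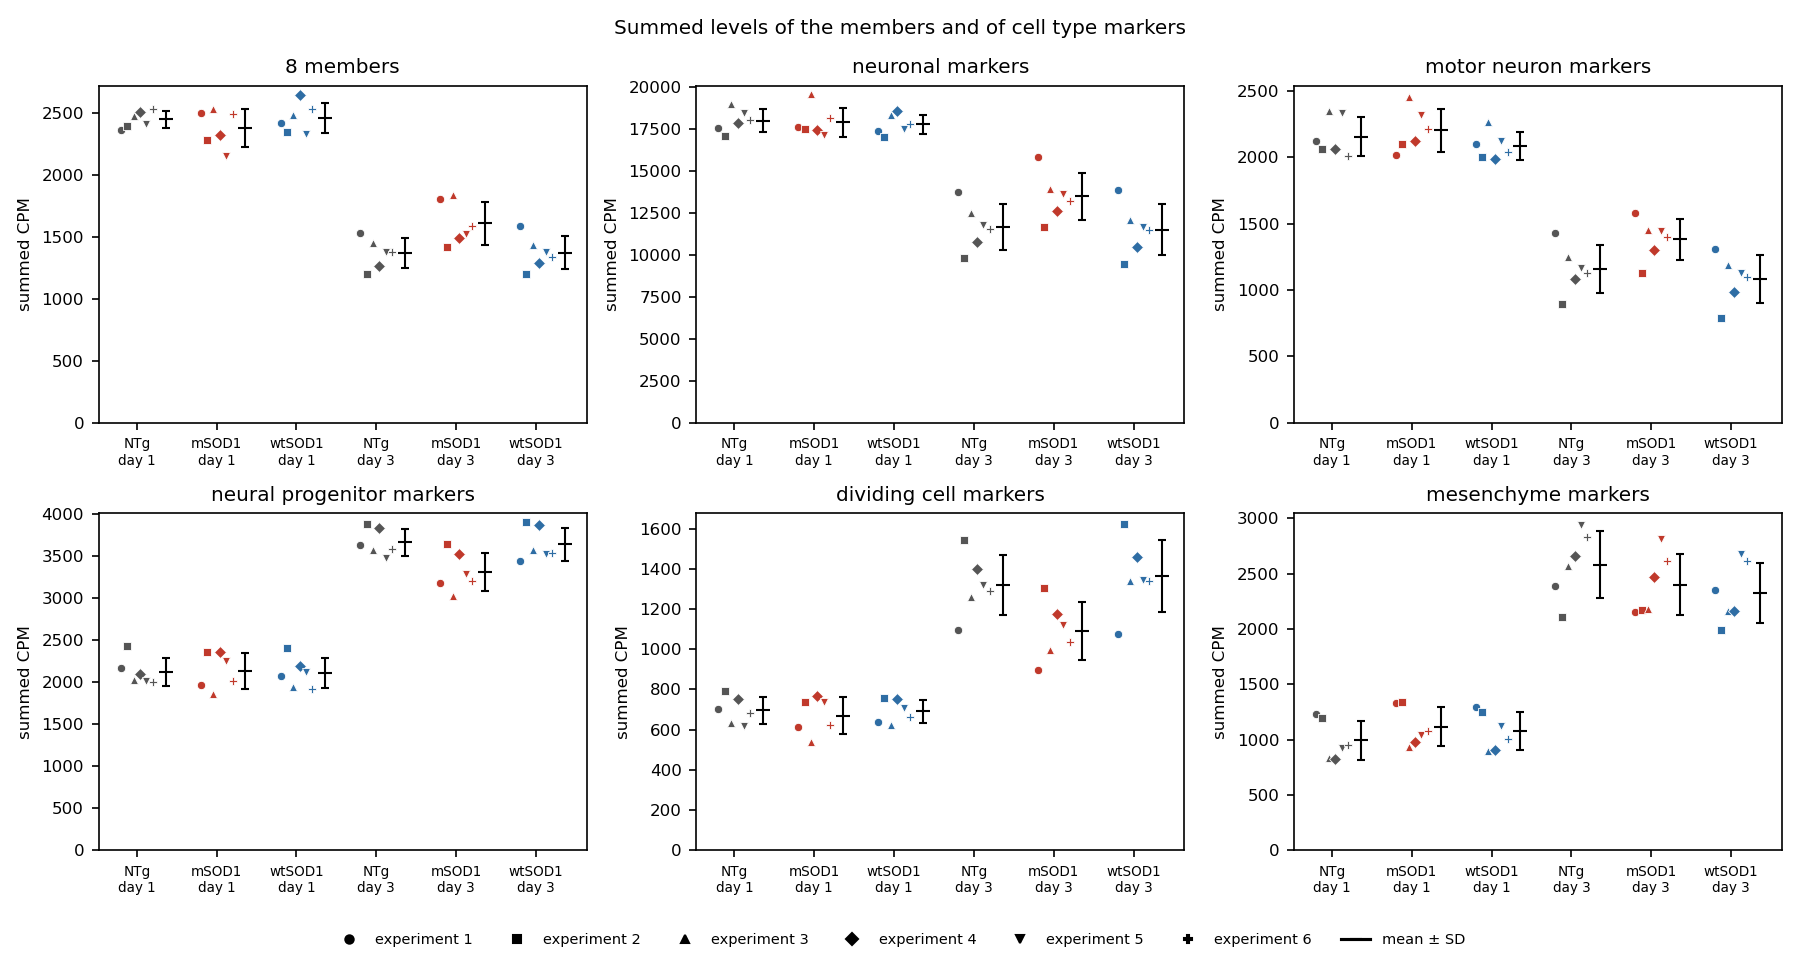
Summed CPM of the 8 members and of 5 marker lists in each library (y axis from 0, TMM-scaled CPM), by medium and day. The members, neuronal and motor neuron sums are lower on day 3, the progenitor, dividing and mesenchyme sums are higher, and on day 3 the mSOD1 libraries have the highest mean neuronal sum (13482) and the lowest mean dividing sum (1090).

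The comparison of mSOD1 with NTg medium asks what the astrocytes' mutant transgene adds to the medium's effect, and wtSOD1 medium is the control for SOD1 over-expression. On day 3, Elavl2 and Elavl4 were higher in mSOD1 medium than in either other medium. Elavl2 ranged from 242 to 326 CPM in mSOD1, 197 to 250 in NTg and 195 to 262 in wtSOD1 medium. The groups overlapped, yet within each experiment the mSOD1 library was above both others in 6 of 6. The log2 difference of Elavl2 was 0.31 ± 0.07 against NTg (adjusted p 0.0119, edgeR) and 0.35 ± 0.07 against wtSOD1 (adjusted p 0.00252), means 24.2% and 27.2% higher. Elavl4 was higher by 0.28 ± 0.07 (adjusted p 0.0233) and 0.32 ± 0.07 (adjusted p 0.00418), again in 6 of 6 experiments each. These comparisons share the mSOD1 libraries.

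The other six members were also higher in mSOD1 medium on day 3 but did not pass the test. Against NTg their log2 differences were 0.23 ± 0.08 for Elavl3, 0.20 ± 0.06 for Nova1, 0.18 ± 0.07 for Nova2, 0.30 ± 0.12 for Rbfox1, 0.16 ± 0.05 for Rbfox2 and 0.29 ± 0.10 for Rbfox3. Their adjusted p-values from edgeR lay between 0.054 (Nova1) and 0.161 (Nova2). Against wtSOD1 medium they were 0.21, 0.18, 0.11, 0.29, 0.14 and 0.33 in the same order, with adjusted p between 0.0611 (Rbfox3) and 0.427 (Nova2). The mSOD1 library was above its NTg partner in 6 of 6 experiments for 7 members and in 5 of 6 for Rbfox1, and above its wtSOD1 partner in 6 of 6 for all 8. The share of all genes that were higher in 6 of 6 experiments was not counted. The members were read in the same libraries and varied together within groups (given below), so their counts are not independent of each other.

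So 2 of 8 members passed against NTg, where 2.23% of all genes were higher and 0.684% lower, and 2 of 8 against wtSOD1, where 2.49% were higher and 0.901% lower. The members' medians were 0.26 and 0.25, against medians near 0 over all genes. How many passed depended on the fit. With the experiment number as a block, 7 of 8 members passed against NTg (all but Rbfox1, adjusted p 0.0716), where 6.46% of all genes were higher, and 6 of 8 against wtSOD1 (all but Nova2 and Rbfox1), where 5.87% were higher. With a block for each experiment within each day, 8 and 7 members passed, where 10.9% and 9.48% of genes were higher. The members that passed were all higher in mSOD1 medium. Without the mSOD1 day 3 library of experiment 3, or without all libraries of experiment 3, 4 or 6, no member passed against NTg (0 of 8). Of the 15199 to 15281 genes tested in these fits, 78, 32, 110 and 66 passed in the same order, in place of 443. Against wtSOD1 at least 2 members passed in these fits, where 240, 169, 327 and 166 genes did, in place of 516.

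A few neuronal, motor neuron and dividing cell markers also passed in these comparisons. The sums of these lists overlapped between the media on day 3. Yet within every experiment the mSOD1 sum was above both others for the neuronal and motor neuron lists, and below both for the dividing list. The neuronal markers had median log2 differences of 0.20 against NTg and 0.22 against wtSOD1. For the motor neuron markers these were 0.21 and 0.26, beside the members' 0.26 and 0.25. On day 3 the neuronal sum ranged from 11646 to 15853 CPM in mSOD1, 9792 to 13756 in NTg and 9448 to 13886 in wtSOD1 medium. Stmn2, a neuronal microtubule regulator, was higher by 0.32 ± 0.08 against NTg (adjusted p 0.0231, edgeR), 1 of 17 neuronal markers past the test there, and 3 of 17 were higher against wtSOD1. Among motor neuron markers the GDNF receptor genes Gfra1 (0.47 ± 0.09) and Ret (0.31 ± 0.08) were higher against NTg, 2 of 10, and 3 of 10 were higher against wtSOD1. Of the dividing cell markers, Mcm2 (-0.37 ± 0.07) and Mcm5 (-0.37 ± 0.09), both of the replicative helicase, were lower against NTg, 2 of 10, and 4 of 10 were lower against wtSOD1. Dcn and Col1a2, of connective tissue, were lower against NTg (log2 -0.83 ± 0.21 and -0.49 ± 0.13). The part of these cell type differences in the members' values was not measured. The scaling that follows sets the members against neuronal markers and cannot tell the number of neurons from marker RNA per neuron.

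On the scale of the neuronal markers, no member passed between mSOD1 and the other media on day 3. Elavl2 was 2.11% of the neuronal marker reads in mSOD1, 1.96% in NTg and 1.95% in wtSOD1 medium, log2 differences of 0.10 and 0.11 (adjusted p 0.143 and 0.102, exact permutation test). Elavl4 was 1.66%, 1.58% and 1.55%, log2 0.07 and 0.09 (adjusted p 0.156 and 0.0992, same permutation test). The share of Elavl2 was nonetheless higher in mSOD1 in 6 of 6 experiments against each other medium. Nova1, Nova2 and Rbfox2 turned below 0 on this scale against NTg (-0.01, -0.03 and -0.05). The libraries of experiment 2 had the lowest neuronal sum on day 3 in each medium (9792, 11646 and 9448 CPM for NTg, mSOD1 and wtSOD1), the lowest members' sum (1201, 1416 and 1203) and the highest dividing sum (1543, 1306 and 1621).

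On day 1 no member passed the test between media. Against NTg the log2 differences of mSOD1 ran from -0.20 (Rbfox3) to 0.01 (Elavl2), 0 of 8 passed the test, and 0.421% of all genes did in either direction. At an unadjusted p under 0.05 there was 1 member, Rbfox3 (-0.20 ± 0.10, adjusted p 0.701, edgeR), which ranged from 46.8 to 58.0 CPM in mSOD1 and from 54.0 to 65.3 in NTg medium. Of the 15207 genes tested, 1058 had an unadjusted p under 0.05 by edgeR there. DESeq2 and limma also called 0. Against wtSOD1, 0 of 8 passed (0 unadjusted, and 0 by DESeq2 and limma), beside 1.01% of all genes. Rbfox3 was again the lowest (-0.19 ± 0.10, adjusted p 0.464), and with a block for each experiment within each day it passed (adjusted p 0.0483, edgeR), where 2.08% of genes were lower. Elavl3 was lower than in wtSOD1 medium in 6 of 6 experiments (-0.10 ± 0.08, adjusted p 0.721, edgeR). As a share of the neuronal marker reads it was 2.08% in mSOD1 and 2.24% in each other medium, with adjusted p of 0.0487 against NTg and 0.0445 against wtSOD1 (exact permutation test).

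No difference in the members' levels was detected between wtSOD1 and NTg medium. No member passed on day 1 or day 3 (0 of 8 each, 0 unadjusted, and 0 by DESeq2 and limma), beside 0.0263% and 0.0986% of all genes. The log2 differences lay between -0.03 and 0.05 on day 1 and between -0.05 and 0.07 on day 3, each with an SE of 0.05 to 0.12. Rbfox1 had the widest SE and Rbfox2 the narrowest.

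The fall between the days was smaller in mSOD1 medium than in the others for all 8 members, but this interaction did not pass in the fit without a block. Rbfox3 had the largest value: its day 3 minus day 1 difference was higher in mSOD1 than in NTg medium by 0.49 ± 0.14 (adjusted p 0.119, edgeR) and than in wtSOD1 medium by 0.52 ± 0.14 (adjusted p 0.0677). For Elavl2 the values were 0.30 ± 0.10 (adjusted p 0.175) and 0.37 ± 0.10 (adjusted p 0.0613), and for Elavl4 0.28 ± 0.10 and 0.30 ± 0.10. Against NTg 0 of 8 passed, beside 0.23% of all genes, and 0 by DESeq2 or limma. At an unadjusted p under 0.05 by edgeR there were 7 members, beside 2156 of the 15207 genes tested. Against wtSOD1 0 of 8 passed, beside 0.592%, with 0 by limma and 2 by DESeq2, which called 233 of the 15207 genes. Unadjusted by edgeR there were 6 members, beside 2293 of these genes. The marker lists went the same way. The members' median of this interaction was 0.29 against NTg and 0.31 against wtSOD1. The medians were 0.21 and 0.19 for the neuronal markers and 0.22 and 0.21 for the motor neuron markers, with 0 of either list past the test.

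With the experiment block 5 members passed in each of these interactions, beside 1.82% and 2.76% of genes that were higher, and with a block within each day 7 passed in each, beside 7.32% and 7.4%. The interaction of wtSOD1 with NTg had 0 of 8 members past the test (0 unadjusted, 0 by DESeq2 and limma), beside 0.0197% of genes, and its values lay between -0.07 and 0.04.

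Ratios of 2 members within a library do not depend on depth or on the scaling of libraries, and some of them moved between the days. Rbfox3 was read at 0.119 of Rbfox2 on day 1 and 0.0893 on day 3 in NTg medium (geometric means of 6 libraries), a log2 difference of -0.41 (adjusted p 0.0195, exact two-sided permutation test over 54 tests, whose smallest possible raw p is 0.00216). In wtSOD1 medium the ratio fell from 0.115 to 0.0861 (-0.42, adjusted p 0.0195, permutation test). The days did not overlap in these media. In mSOD1 medium it went from 0.105 to 0.0967 (-0.13), which did not pass (adjusted p 0.404, permutation test), and the difference between the media was not tested. On day 1 the ratio was lower in mSOD1 than in NTg medium (-0.17) and than in wtSOD1 medium (-0.12), each with an adjusted p of 0.0425 by the exact permutation test. Without the pair of libraries that stand apart the difference from NTg did not pass (-0.18, adjusted p 0.0531, permutation test), and with a pseudocount of 2 reads the difference from wtSOD1 did not (-0.12, adjusted p 0.0531).

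Rbfox1 relative to Rbfox2 also fell, from 0.452 to 0.376 in NTg and from 0.434 to 0.374 in wtSOD1 medium (log2 -0.26 and -0.22, adjusted p 0.039 each, exact permutation test). In mSOD1 medium the difference was -0.14 (adjusted p 0.518, permutation test). Without the pair of libraries that stand apart the fall in NTg medium did not pass (-0.22, adjusted p 0.0623, permutation test). Thus the more widely expressed Rbfox2 made up more of the Rbfox reads on day 3 in NTg and wtSOD1 medium.

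Of the Elavl ratios 1 passed between the days, in NTg medium. Elavl2 rose relative to Elavl3 from 1.03 to 1.19 in NTg medium (0.21, adjusted p 0.039, exact permutation test), and changes of 0.16 in mSOD1 (adjusted p 0.0779, permutation test) and 0.10 in wtSOD1 medium (adjusted p 0.356) did not pass. On day 1 Elavl4 relative to Elavl3 was 0.973 in mSOD1 and 0.896 in wtSOD1 medium, a log2 difference of 0.12 with no overlap (adjusted p 0.0195, exact permutation test). Against NTg medium this ratio differed by 0.11 (adjusted p 0.148, permutation test), and by 0.15 without the pair of libraries that stand apart, where it passed (adjusted p 0.0167). The ratio of Nova1 to Nova2 stayed between 1.81 and 1.92 as a group mean and passed in none of the 9 comparisons.

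**Figure D4:**
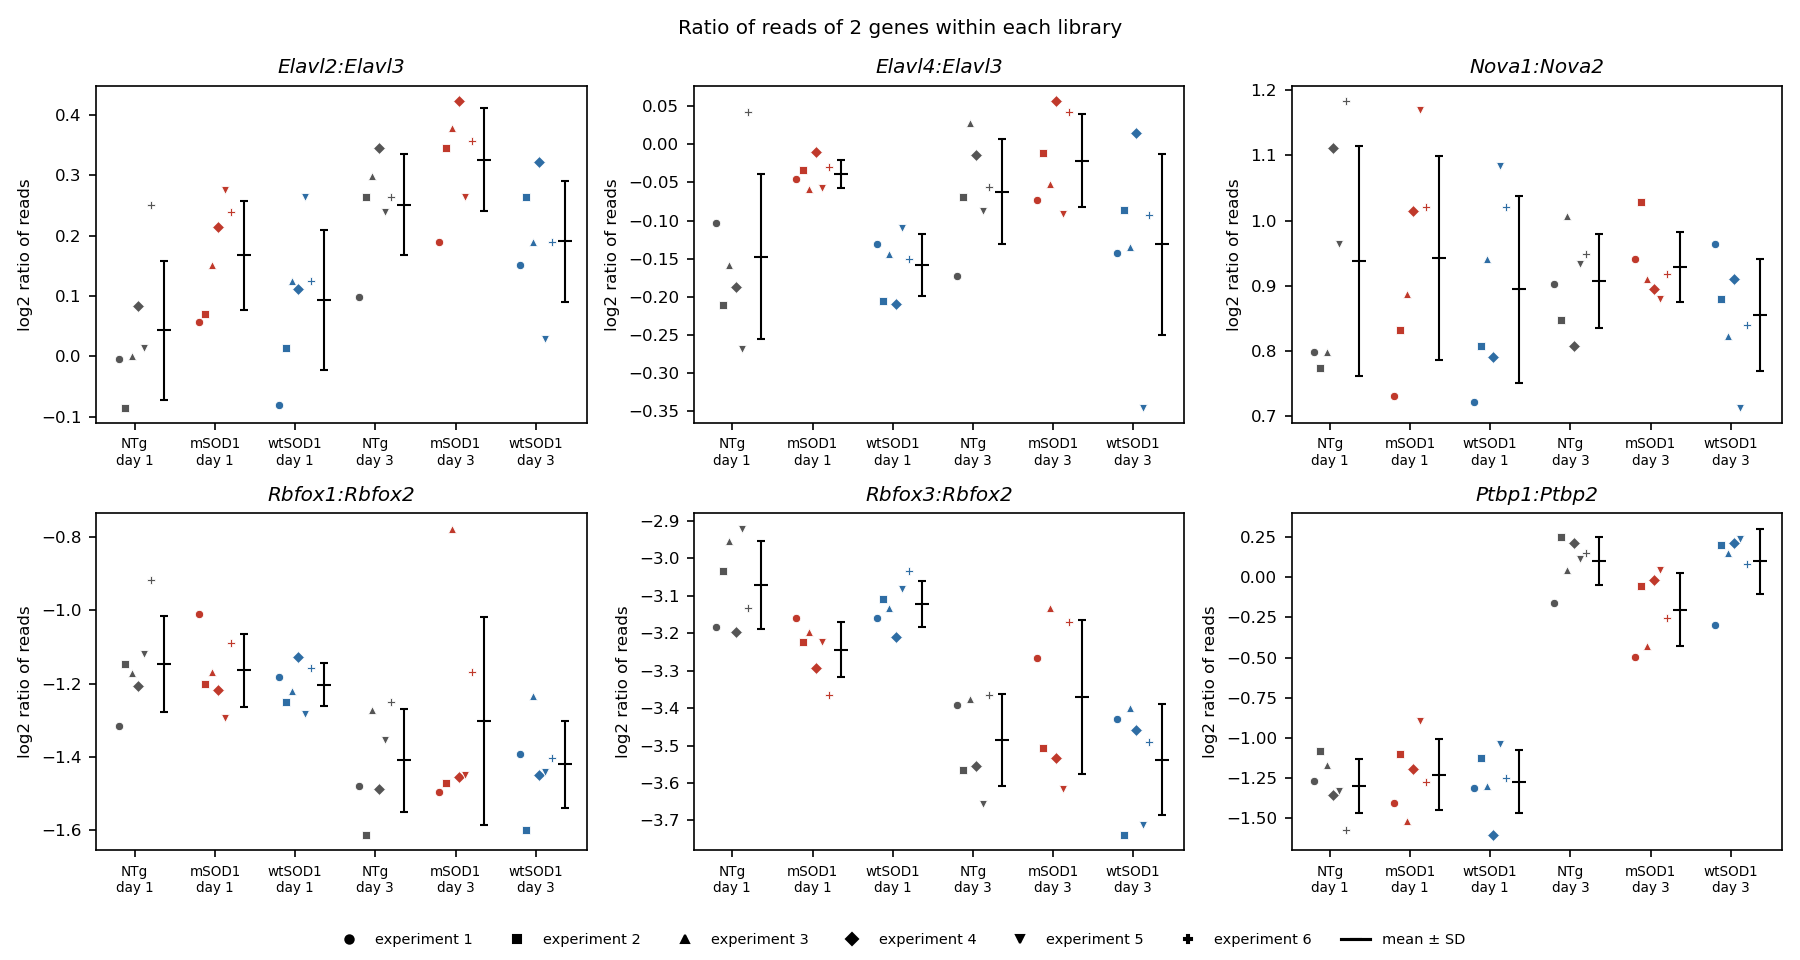
Ratios of reads of 2 genes in the same library (y axis, log2 ratio, 1 panel per ratio) for each of the 36 libraries, by medium and day, with the mean ± SD of 6. Ptbp1 to Ptbp2 rises by more than 1 on the log2 scale in all 3 media, Rbfox3 to Rbfox2 falls in NTg and wtSOD1 medium, and Nova1 to Nova2 stays level.

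Ptbp1, which represses neuronal exons in progenitors and other cells, and Ptbp2, its relative of young neurons, moved in opposite directions. Ptbp1 ranged from 102 to 136 CPM on day 1 and from 162 to 201 on day 3 in NTg medium, a rise of 0.66 ± 0.08 on the log2 scale. It rose by 0.43 ± 0.08 in mSOD1 and 0.69 ± 0.08 in wtSOD1 medium. Ptbp2 fell from a range of 274 to 326 CPM to one of 168 to 186 in NTg medium, with log2 differences of -0.73 ± 0.05, -0.60 ± 0.05 and -0.69 ± 0.05 in NTg, mSOD1 and wtSOD1 medium. The ratio of Ptbp1 to Ptbp2 rose from 0.407 to 1.07 in NTg, from 0.427 to 0.871 in mSOD1 and from 0.414 to 1.07 in wtSOD1 medium, without overlap (log2 1.40, 1.03 and 1.37, adjusted p 0.0195 each, exact permutation test).

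On day 3 the log2 difference of Ptbp1 in mSOD1 medium was -0.25 ± 0.08 against NTg (adjusted p 0.0735, edgeR) and -0.26 ± 0.08 against wtSOD1 (adjusted p 0.0522), with lower values in 6 of 6 experiments each. It passed with the experiment block (adjusted p 0.0042 and 0.00229). Ptbp2 differed by 0.05 ± 0.05 and 0.04 ± 0.05, neither past the test.

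The 26 other regulators of splicing and mRNA fate in neurons did not move as a block. Between the days 11 rose and 11 fell in NTg medium, 10 and 11 in mSOD1, and 11 and 12 in wtSOD1, with medians of -0.04, 0.04 and 0.04 beside the members' falls. Srrm3 and Srrm4, activators of neuronal microexons, fell with the members. The log2 differences were -1.12 ± 0.09, -0.69 ± 0.09 and -1.07 ± 0.09 for Srrm4 in NTg, mSOD1 and wtSOD1 medium, and for Srrm3 -1.06 ± 0.11, -0.75 ± 0.11 and -0.94 ± 0.11. Celf3, a neuronal member of the Celf family, fell too (-1.18 ± 0.08, -1.03 ± 0.08 and -1.27 ± 0.08). Its relative Celf2 rose by 0.74 ± 0.07, 0.81 ± 0.07 and 0.72 ± 0.07, and Mbnl2, a splicing factor of later development, by 0.81 ± 0.07, 0.96 ± 0.07 and 0.75 ± 0.07.

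Elavl1, the widely expressed relative of the neuronal Elavl genes, rose slightly: 0.15 ± 0.04 in NTg (adjusted p 0.00131, edgeR) and 0.10 ± 0.04 in wtSOD1 medium (adjusted p 0.0327), with 0.09 ± 0.04 in mSOD1 (adjusted p 0.0608). In mSOD1 medium it was higher on day 3 in 6 of 6 experiments and passed with the experiment block (adjusted p 0.0355, edgeR). Rest, the repressor of neuronal genes and of Srrm4, was singled out after its values were seen, and it rose by 0.97 ± 0.09, 0.93 ± 0.09 and 0.93 ± 0.09.

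Between media, 1 of the 26 passed: Msi1, an RNA-binding protein of neural progenitors, was lower on day 3 in mSOD1 than in wtSOD1 medium (log2 -0.31 ± 0.09, 52.9 against 65.5 CPM, adjusted p 0.0467, edgeR). In that comparison DESeq2 called 3 of the 26, beside 783 of 15207 genes, and limma 0 of the 26. Against NTg on day 3, 0 of the 26 passed by edgeR, 0 by limma and 2 by DESeq2, which called 715 of 15207 genes. At an unadjusted p under 0.05 by edgeR there were 7 of the 26, beside 2943 of the 15207 genes.

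**Figure D5:**
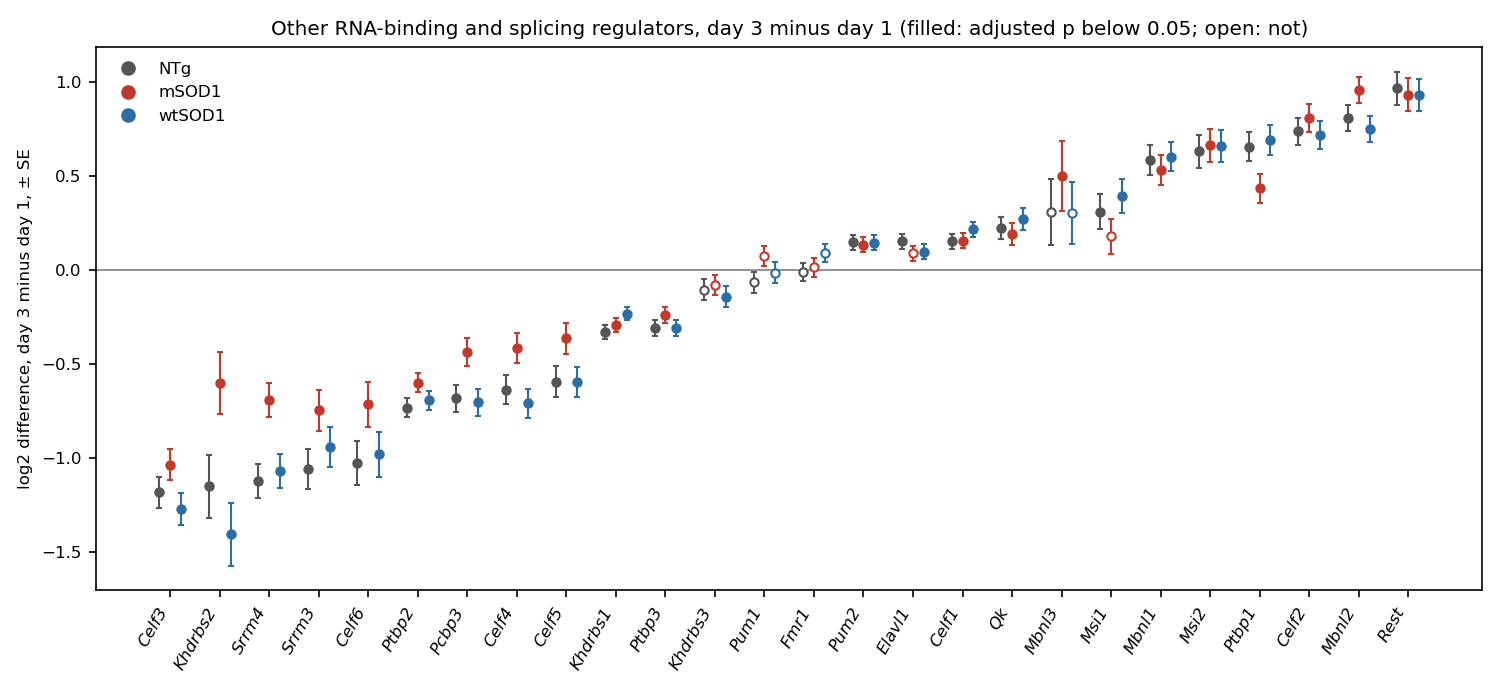
Log2 difference of day 3 minus day 1 (y axis) for the 26 other RNA-binding regulators (1 column per gene, points for the 3 media with SE). Srrm3, Srrm4, Celf3 and Ptbp2 lie below 0 and Ptbp1, Celf2, Mbnl2 and Rest above 0 in all 3 media.

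The mRNAs that these proteins are known to bind or splice were read as gene totals, which do not show splicing, polyadenylation or stability. Of 15 mRNAs described as bound by neuronal Elavl proteins, 9 fell and 3 rose in NTg, 10 and 3 in mSOD1, and 9 and 3 in wtSOD1 medium, with medians of -0.49, -0.40 and -0.32. Of all genes tested, 30.8%, 28.0% and 30.7% fell and 30.8%, 28.4% and 31.1% rose in the same media. Kif5c, a neuronal kinesin, fell (-0.83 ± 0.07, -0.54 ± 0.07 and -0.82 ± 0.07), as did Gap43, of growing axons and also a neuronal marker (-0.78 ± 0.07, -0.57 ± 0.07 and -0.85 ± 0.07). Cdkn1a, the cell cycle inhibitor p21, rose by 1.23 ± 0.07, 0.97 ± 0.07 and 1.17 ± 0.07. On day 3, Kif5c was higher in mSOD1 medium than in NTg (0.24 ± 0.07, adjusted p 0.0415, edgeR) and than in wtSOD1 (0.23 ± 0.07, adjusted p 0.0404). With it 2 of 15 passed against NTg and 3 of 15 against wtSOD1 (also Gap43, 0.26 ± 0.07, and Mapt, 0.29 ± 0.08). On day 1, Cdkn1a was higher in mSOD1 medium than in NTg (0.31, adjusted p 0.0125, edgeR) and than in wtSOD1 (0.27, adjusted p 0.0304), and Fos, an immediate-early gene, was lower than in wtSOD1 (-0.73, adjusted p 1.24e-05).

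Of 14 transcripts spliced by Nova, 8 fell and 3 rose in NTg and wtSOD1 medium and 5 fell and 3 rose in mSOD1, the last near the 28.0% and 28.4% of all genes that fell and rose there. Dcc, a netrin receptor, fell in NTg, mSOD1 and wtSOD1 medium (-1.04 ± 0.10, -0.62 ± 0.10 and -1.15 ± 0.10). On day 3 it was higher in mSOD1 medium by 0.38 ± 0.10 against NTg (adjusted p 0.0382, edgeR) and by 0.41 ± 0.10 against wtSOD1 (adjusted p 0.0205). The other two past the test against NTg were Kcnj6, a potassium channel (0.58 ± 0.15), and Robo2, a Slit receptor (0.35 ± 0.10). Against wtSOD1 3 of 14 passed, among them the glycine receptor gene Glra2 (0.39 ± 0.10).

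Of 14 transcripts spliced or stabilised by Rbfox, 10 fell and 3 rose in NTg and wtSOD1 medium, and 5 fell and 4 rose in mSOD1, again near the shares of all genes (28.0% and 28.4%). Dcx, a microtubule protein of young neurons, fell (-0.96 ± 0.07, -0.66 ± 0.07 and -0.93 ± 0.07). Vamp1, a synaptic vesicle protein whose mRNA Rbfox1 is described to stabilise, went the other way, with rises of 0.53 ± 0.08, 0.81 ± 0.08 and 0.42 ± 0.08. On day 3 Vamp1 was higher in mSOD1 medium by 0.30 ± 0.08 against NTg (adjusted p 0.033, edgeR) and by 0.35 ± 0.08 against wtSOD1 (adjusted p 0.00766). It was 1 of 5 past the test against NTg, with Camta1 (0.21 ± 0.06) and Nrcam (0.20 ± 0.06) among the others, and the only 1 of 14 against wtSOD1.

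The members also varied together among libraries of the same group. Over the deviations of 36 libraries from their 6 group means, Pearson's r between pairs of members had a median of 0.733 over 28 pairs, from 0.2502 for Nova2 with Elavl2 to 0.8959 for Rbfox2 with Elavl3. These points share their library, so its depth, scaling and cell make-up enter both values, and r is a description without a test. By the same measure the gene most like each member, among 13456 genes, was Syt1 for Elavl2 (0.9205), Gnao1 for Elavl3 (0.9474) and Rbfox2 (0.9209), Kif5c for Elavl4 (0.9384), Mtap2 for Nova1 (0.8977), Bsn for Nova2 (0.9226), Cntnap2 for Rbfox1 (0.9241) and Celf4 for Rbfox3 (0.8766).

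Over the levels themselves, which hold the difference between the days as well, the closest genes were Elavl4 (0.9864) and Pak7 (0.9856) for Elavl2, Dpysl3 for Elavl3 (0.9928), Kif5c and Gng2 for Elavl4 (0.9934 and 0.9923), and Dcx and Kif5c for Nova1 (0.9913 and 0.9866). For Nova2 they were Rnf165 and Wnk2 (0.9823 and 0.9818), for Rbfox1 Sema6d and Rbms3 (0.9802 and 0.9781), for Rbfox2 Elavl3 and Gnao1 (0.9896 and 0.9893), and for Rbfox3 Celf4 and Ctif (0.9774 and 0.9761).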

How the data were processed

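RNA from 36 libraries, 6 per group of medium and day, was read from tables with 1 row per gene. The authors deposited whole-number read counts per gene and a second column on a log2 scale by its values, named VSE in the file headers. Per the submitters' processing notes TopHat 1.3.3, DESeq and mm9 were used, with no role stated for each. The counting program and annotation were not stated in the sources used here, and rows without a symbol (7) were kept in the counts under their gene identifier.

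The test of the counts was that of edgeR 4.0.16 under R 4.3.3 (TMM scaling, filterByExpr by group, quasi-likelihood F-test with 6 group means over 36 libraries and 30 residual degrees of freedom), with p-values adjusted by Benjamini-Hochberg over 15207 genes and a threshold of 0.05. SE is the log2 difference divided by the square root of F. CPM use TMM-scaled library sizes. Ratios are log2 of reads plus 0.5, tested by an exact two-sided permutation of 6 against 6 libraries (Python 3.11.15 with NumPy 2.4.6). The scripts were tested on simulated data. Depth ran from 4.39 M to 88.9 M reads per library, and for Rbfox3, with as few as 233 reads, counting error is not small beside the spread between libraries.

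Experiment numbers in the labels pair the libraries. Between same-numbered libraries, deviations from the group means correlated at a mean of 0.205 on day 1 (over 0.1 in 17 of 18 pairs) and 0.322 on day 3 (16 of 18). Between different numbers the means were -0.0406 and -0.0637. Across the days the mean was 0.0517 for the same number (over 0.1 in 20 of 54) and -0.0104 for different numbers, so the pairing was weak there. Fits with that number as a block, other scalings and filters, DESeq2 1.42.0, limma 3.58.1 on the deposited log2 values and fits without 1 experiment were the alternatives. Scaling to neuronal markers and leaving out 1 mSOD1 library were added after seeing the data. The members and lists were chosen with earlier results of these data known. Named genes were the 8 members, Ptbp1, Ptbp2, Srrm3, Srrm4 and Elavl1 whatever their value, up to 4 genes per list and comparison past the threshold by lowest p, and the genes most like a member over 36 libraries. A few genes that this rule names are not reported here. Gene lengths come from GENCODE M21 and promoter windows from RefSeq, both of GRCm38, and no coordinate of the files' build was used. Pluripotent cell markers (5 genes) summed to 0.447 to 28.0 CPM.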

Additional observations from a re-analysis of the deposited data

Results flagged for a closer look

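In 4 of 84 groups of 6 libraries looked at, the highest or lowest library lay far from the others by Dixon's gap-to-range test at the 95% level, and chance gives about 1 in 20. Rbfox1 in mSOD1 medium on day 3 was 231 CPM in experiment 3 and 123 to 156 CPM in the others. Nova1 in wtSOD1 medium on day 3 was 223 CPM in experiment 1, against 175 to 189 CPM. Nova2 in NTg medium on day 3 was 112 CPM in experiment 1, against 91.7 to 97.4 CPM. The ratio of Ptbp1 to Ptbp2 reads in wtSOD1 medium on day 3 was 0.812 in experiment 1, against 1.06 to 1.18.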

How the results depend on the processing

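The fall of all 8 members between the days passed in each medium under every fit on counts or log2 values and without any 1 experiment (8 to 8). Scaled to the neuronal markers, 6 passed in NTg, 2 in mSOD1 and 5 in wtSOD1 medium, and Rbfox2 turned above 0 (0.0348, 0.0061 and 0.0216), not past the test. No gene outside the members was tested on that scale, so these counts have no share over all genes beside them.

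For mSOD1 against NTg on day 3, 2 members passed, 4 with DESeq2, 1 with libraries of 1 day only, 0 without mSOD1 day 3 of experiment 3, 0 to 3 without 1 experiment and 0 scaled to the neuronal markers, where Nova1 (-0.0094), Nova2 (-0.0285) and Rbfox2 (-0.0457) changed sign. Against wtSOD1 on day 3, 2 passed, 4 with DESeq2, 2 to 3 without 1 experiment and 0 scaled to the markers. On that scale Elavl3 (-0.0197), Nova1 (-0.0501), Nova2 (-0.1215) and Rbfox2 (-0.0945) changed sign. The share of Nova2 was higher in mSOD1 in 0 of 6 experiments (adjusted p 0.0891, exact permutation test). On day 1 the scaling gave 1 member (Elavl3) against NTg and 2 (Elavl3, Rbfox3) against wtSOD1, in place of 0. For the day change of mSOD1 against wtSOD1, 0 passed, 2 with DESeq2 and 0 to 2 without 1 experiment. The cause of these moves was not tested.

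With the replicate block, that is pairing by experiment number, 7 and 6 members passed on day 3 against NTg and wtSOD1, and 5 and 5 in the day changes. With the block within each day these were 8, 7, 7 and 7, and 1 (Rbfox3) on day 1 against wtSOD1. The block changed no other count of members. Sign flips of the 6 pairs gave 0 ratios in every comparison by construction, since 6 pairs cannot reach the adjusted threshold, and say nothing about stability.

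Without 1 experiment, which also weakens the permutation test by construction, ratios that passed numbered 0 to 3 in NTg (4 with all libraries), 0 to 1 in mSOD1 (1) and 0 to 2 in wtSOD1 (3) between the days, the ratio of Ptbp1 to Ptbp2 included, 0 to 1 on day 1 against NTg and against wtSOD1, and 0 to 1 on day 3 against wtSOD1. A pseudocount of 2 reads left 1 ratio on day 1 against wtSOD1, losing Rbfox3 to Rbfox2. Without the libraries that stand apart, Rbfox3 to Rbfox2 on day 1 against NTg and Rbfox1 to Rbfox2 between the days in NTg medium were lost, and Elavl4 to Elavl3 on day 1 against NTg was gained.

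Over all genes, calls on day 3 numbered 443 against NTg (715 with DESeq2, 1511 and 2758 with the blocks, 32 to 388 without 1 experiment, 78 without mSOD1 day 3 of experiment 3, 288 with no filter) and 516 against wtSOD1 (783, 1418 and 2366, 166 to 657 and 240 in the same order). The day changes against NTg and wtSOD1 gave 35 and 90 calls, with DESeq2 99 and 233, with the blocks 406 and 599 and then 1680 and 1649, without 1 experiment 8 to 38 and 17 to 206, without mSOD1 day 3 of experiment 3 20 and 46, and against NTg 70 without the libraries that stand apart. On day 1, mSOD1 gave 64 calls against NTg (189 with the block within each day) and 153 against wtSOD1 (234 and 577 with the blocks, 73 with 1 day only, 95 without the libraries that stand apart, 48 to 123 without 1 experiment). For wtSOD1 against NTg the counts were 4 on day 1 (17 with DESeq2, 8 with library totals, 2 with limma, 9 and 56 with the blocks, 0 to 4 without 1 experiment), 15 on day 3 (23 with 1 day only, 56 with the block within each day, 8 to 12 without 1 experiment) and 3 for the day change (19 with that block, 2 without the libraries that stand apart, 0 to 3 without 1 experiment).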
